A study of Mus musculus with 2 samples.

Results

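Store-operated calcium entry and the calcium pumps were followed through 10 genes that supply and clear calcium in ameloblasts, the enamel-forming cells. The genes were Stim1, Stim2, Orai1, Orai2, Orai3, Atp2a2, Atp2a3, Atp2b1, Atp2b4 and Calb1. They were chosen by name, with earlier results of these data known, and every array probe annotated to one of them was taken, whatever its values. Of the 16593 genes named on the array, 9 of these 10 were represented, by 14 of its 25697 probes, and Stim2 had no entry in the annotation used here. Of the 9 genes, 6 were detected, by 7 of the 14 probes.

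RNA came from lower incisors of C57BL/6 mice at 10 wk, from the cervical loop (CL) where the tooth keeps growing. The KO sample came from mice of genotype MED1 fl/fl K14Cre, in which Cre made under the keratin 14 promoter removes floxed Med1 from epithelial cells. Cells of the tissue that never made keratin 14, and whose precursors never made it, keep Med1. The control sample, named WT, came from MED1 fl/fl littermates, so both groups carried the floxed alleles. Each group is 1 sample, pooled from 3 mice, although the series text gives an n of 3. The submitters' protocol speaks of hair-generating dental tissue, while the stage label of both samples is the CL.

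In store-operated entry, STIM proteins in the endoplasmic reticulum (ER) membrane sense the fall of stored calcium and open ORAI channels in the plasma membrane. SERCA pumps, encoded by the Atp2a genes, return calcium to the ER, and plasma membrane pumps of the Atp2b genes expel it from the cell. Ameloblasts move large amounts of calcium into forming enamel, and loss of STIM1 or ORAI1 in people is known to leave enamel poorly mineralized. The comparison asked whether the genes for this machinery differed in the CL when the epithelium lacked Med1.

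Values are intensities of an Illumina bead array with 1 column per genotype, called the KO array and the WT array here, although a column could also be a mean of several arrays, which the sources do not settle. A probe was called detected when its detection p, which places it against negative control probes, was under 0.01 on at least 1 array. Ratios are KO minus WT on the log2 scale after background correction and quantile normalization with an offset of 16. With 1 sample per group there is no test, and no value has an error between mice. The KO array detected 11374 probes and the WT array 11024, and 8378 named genes were detected in all. Their median log2 ratio was 0.00, and 95% of them lay between -0.62 and 0.61. As a guide to measurement error, the ratios of the 2 brightest probes of a gene differed by a median of 0.20 log2 units in 2007 genes, and the SD per probe was 0.25. Med1 read 172.9 on the KO array and 245.9 on the WT array at its only detected probe, 1.74-fold lower in KO, and whether that probe lies in the deleted part of the gene is not known.

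**Figure D1:**
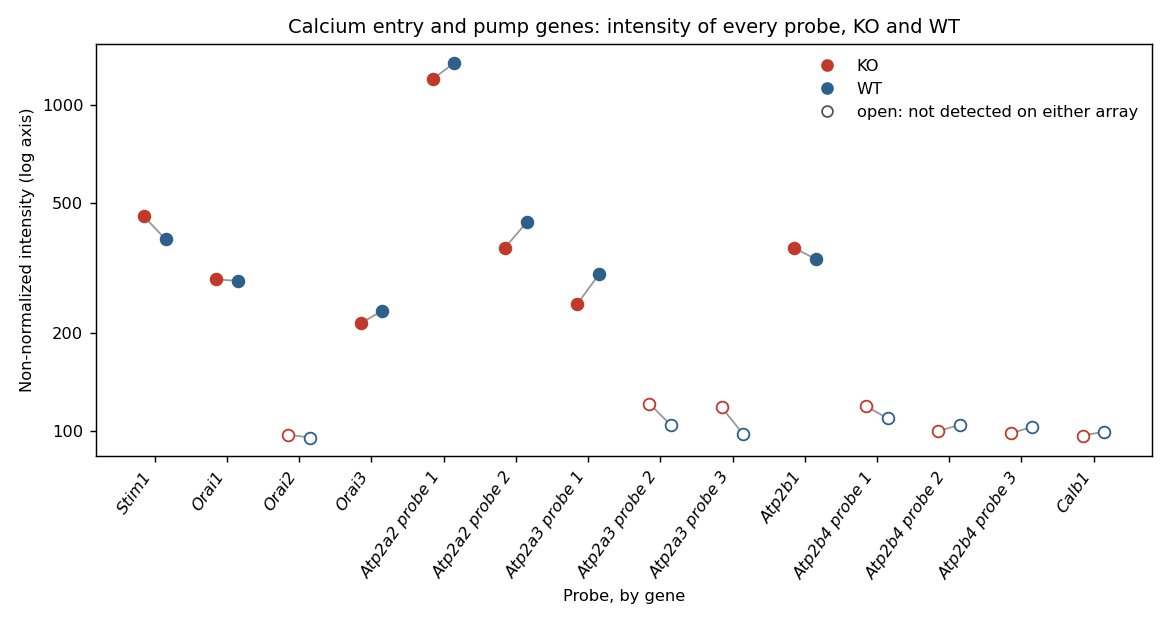
Non-normalized intensity (log axis) of the 14 probes of the calcium entry and pump genes, with KO left of WT in each pair and 1 column of values per genotype. Open circles are probes that were not detected on either array, and they lie between 95.3 and 121.1; the detected probes lie between 213.7 and 1351.8.

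Of the calcium entry and pump genes that were detected, Stim1 had the highest ratio. Stim1, which encodes the calcium sensor of the ER, read 456.1 on the KO array and 387.3 on the WT array before normalization. After normalization its log2 value was 8.61 in KO and 8.17 in WT, a ratio of 0.44, which is 1.35-fold higher in KO. Of the 8378 detected genes, 524 had a ratio as high or higher, and 12.8% had one as wide or wider in either direction. It exceeded the probe SD of 0.25, but Stim1 has a single probe on the array and no second reading. Stim2, the paralogous sensor that responds to smaller losses of stored calcium, could not be read here.

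The pore-forming ORAI genes differed less than Stim1. Orai1, the main channel subunit of store-operated entry, read 291.9 in KO and 288.7 in WT, and its normalized log2 values were 7.75 in KO and 7.61 in WT. The ratio was 0.14, 1.10-fold higher in KO and below the SD between probes. Orai3, a channel subunit that can join ORAI1, read 213.7 in KO and 233.9 in WT. Its ratio was -0.12, 1.09-fold lower in KO, and was also below the SD between probes. Orai2, the third subunit, was not detected, with readings of 97.3 in KO and 95.3 in WT and detection p of 0.88 in KO and 0.78 in WT.

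The readings of both SERCA genes depended on the probe. Atp2a2, which encodes SERCA2, the pump that most cell types use to refill the ER, read 1204.2 in KO and 1351.8 in WT at its brighter probe. The normalized log2 values were 10.23 in KO and 10.21 in WT, a ratio of 0.03 that became -0.16 with median scaling and -0.08 as a mean over its probes. Its dimmer probe read 365.5 in KO and 436.9 in WT, with a ratio of -0.19. The brighter probe was thus lower in KO before normalization and level with WT after it, and no direction is given for Atp2a2.

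Atp2a3 had the lowest ratio of the detected genes. It encodes SERCA3, a pump known from blood cells, endothelium and some epithelia. Its only detected probe read 245.2 in KO and 302.2 in WT, with normalized log2 values of 7.37 in KO and 7.70 in WT. The ratio was -0.33, 1.26-fold lower in KO, and 922 of the 8378 genes were as low or lower. The other 2 probes of Atp2a3 were at the background and ran the other way. One read 121.1 in KO and 103.9 in WT (detection p 0.015 in KO and 0.22 in WT), and the other 118 in KO and 97.5 in WT (detection p 0.026 in KO and 0.63 in WT). Their ratios of 0.57 and 0.60 rest on readings that did not pass the detection limit on either array, so the direction for Atp2a3 rests on 1 probe.

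To set the promoters of the genes at both ends of the range beside their values, the 250 bases before the RefSeq start are shown for Stim1 (chr7:102267569-102267818, plus strand) and Atp2a3 (chr11:72960919-72961168, plus strand) in GRCm38.p6. Capitals mark the GC box, GGGCGG or its reverse complement CCGCCC, a motif bound by Sp family factors, and overlapping matches are each counted.
Stim1: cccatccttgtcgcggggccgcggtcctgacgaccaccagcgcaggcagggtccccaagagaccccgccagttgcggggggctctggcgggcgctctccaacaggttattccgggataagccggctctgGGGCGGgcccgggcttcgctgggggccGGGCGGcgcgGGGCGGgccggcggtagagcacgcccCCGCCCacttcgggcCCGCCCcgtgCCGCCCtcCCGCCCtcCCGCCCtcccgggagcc
Atp2a3: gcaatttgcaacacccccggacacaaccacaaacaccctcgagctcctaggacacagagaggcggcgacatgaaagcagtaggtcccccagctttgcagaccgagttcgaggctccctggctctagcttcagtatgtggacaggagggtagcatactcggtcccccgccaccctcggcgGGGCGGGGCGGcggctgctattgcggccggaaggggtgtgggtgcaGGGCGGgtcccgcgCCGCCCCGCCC
The Stim1 window held 8 matches and the Atp2a3 window 5. Promoters were listed for 8 of the 10 genes, in 9 windows, and 8 of the 9 windows held at least 1 GC box, against 32.7% of all 32851 windows of this length. The only window without one was that of Atp2b4. The nuclear receptor half-site AGGTCA (or TGACCT), of interest because MED1 is a coactivator of nuclear receptors, was in 1 of the 9 windows, that of Orai2, and in 14% of all windows. These matches describe the letters and were not tied to binding, and no link to the ratios was tested.

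Of the plasma membrane pumps, only Atp2b1 could be measured. Atp2b1, which encodes PMCA1, the pump found in nearly all cells, read 364.3 in KO and 337.5 in WT. Its normalized log2 values were 8.19 in KO and 7.91 in WT, a ratio of 0.28, which is 1.21-fold higher in KO. In all, 1196 of the 8378 genes had a ratio as high or higher. Atp2b4, which encodes PMCA4, had 3 probes and was detected by none. Its least dim probe read 119 in KO and 109.1 in WT, with detection p of 0.023 in KO and 0.075 in WT, and the other 2 read 98.2 and 99.8 in KO, against 102.7 and 104.3 in WT.

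Calb1, which encodes the cytosolic calcium buffer calbindin-D28k and is a vitamin D target in kidney, was not detected. It read 96.6 in KO and 99.4 in WT, with detection p of 0.91 in KO and 0.51 in WT. Calbindin-D28k is a long-used protein marker of ameloblasts, but at this signal no difference in its mRNA was detectable.

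None of the 6 detected genes differed by 1.5-fold or more, where 5.94% of all detected genes did (3.02% higher and 2.92% lower in KO) and 0.621% differed by 2-fold. At a lower limit, 0.32 on the log2 scale, 2 of the 6 were past it, Stim1 higher and Atp2a3 lower in KO. In 4 of the 8 alternatives only 1 of them was. Atp2a3 was inside the limit without background correction (-0.23), in the authors' normalized values (-0.23) and with an offset of 50 (-0.28). Stim1 was inside it with median scaling (0.30). The remaining alternatives could alter neither ratio, since both genes were then read from the same probe as before. Of all detected genes 23.2% were past this limit, 11.5% higher and 11.7% lower in KO. Of the 6 ratios, 4 were above 0 and 2 below, beside 50.1% of all detected genes above 0, and their median was 0.09 against 0.00 over all genes. With median scaling, which moved the median of all detected genes to -0.13, 3 of the 6 were above 0, beside 30.6% of all detected genes, and their median was -0.07. A share over 6 genes is coarse, and no difference from the rest of the array is read from these counts.

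**Figure D2:**
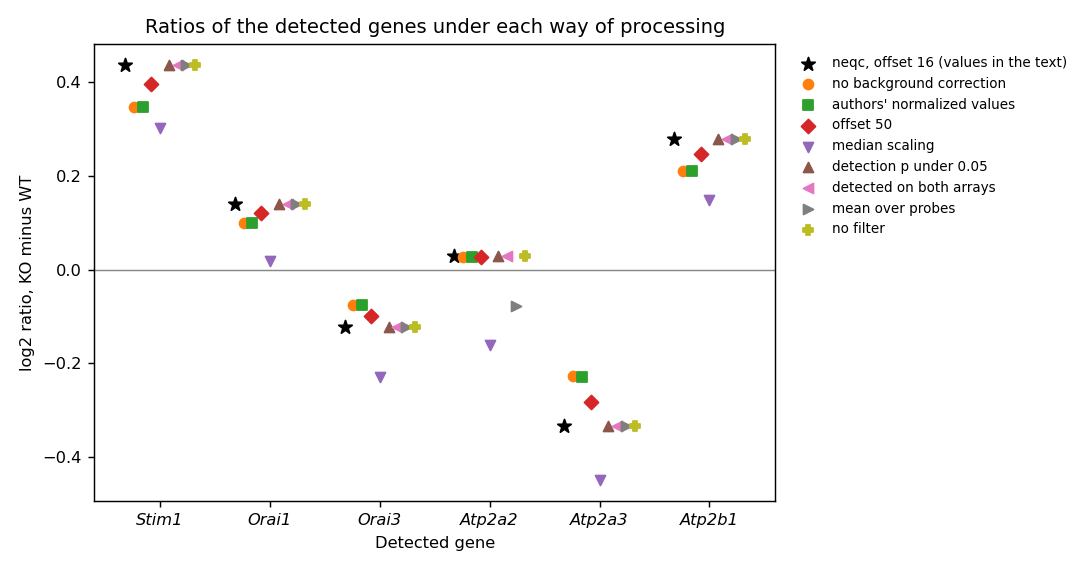
The log2 ratio (KO minus WT) of each of the 6 detected genes under the processing used in the text (stars) and 8 alternatives, from 1 column of values per genotype. Stim1 stayed between 0.30 and 0.44 and Atp2a3 between -0.45 and -0.23, while Atp2a2 lay on both sides of 0. The detection rules and the mean over probes could move Atp2a2 alone.

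Around this core, 92 other calcium handling genes were grouped by role, and 47 of the 80 found on the array were detected. Of these, 31 were above 0 and 16 below (66% above 0, against the 50.1% of all genes), with a median ratio of 0.11. With median scaling 21 of the 47 were above 0, beside 30.6% of all detected genes, and the median was -0.02, beside -0.13 over all genes. In all, 3 of the 47 (6.38%) were past 1.5-fold, close to the 5.94% of all detected genes. They were Itpr3 and Cacnb1, higher in KO, and Mcu, lower in KO, of which Cacnb1 was not detected in WT. Both without background correction and in the authors' normalized values Cacnb1 was at 0.22 and Mcu at -0.24, inside the limit, and Itpr3 was at 0.59.

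The ER release channels lie upstream of store-operated entry, since they empty the store. Itpr3, the type 3 inositol trisphosphate receptor, read 631.2 in KO and 463.3 in WT, and its normalized log2 values were 9.18 in KO and 8.48 in WT. The ratio was 0.70, 1.62-fold higher in KO, and 132 of the 8378 genes were as high or higher. It stayed between 0.54 and 0.70 in all 8 alternatives, although the detection rules and the mean over probes could not alter it. With median scaling it was inside the 1.5-fold limit, at 0.54. Itpr2, the type 2 receptor, read 269.4 in KO and 338 in WT, with a ratio of -0.34. Ryr1, the ryanodine receptor of skeletal muscle, had a ratio of 0.36 at its brighter probe, and another probe, detected in WT only, had -0.83. The 2 inositol trisphosphate receptors that were detected thus ran in opposite directions.

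Among the regulators of store-operated entry, 5 of 7 detected genes were above 0, beside 50.1% of all detected genes, with a median of 0.14. Saraf, whose product turns store-operated channels down after the store has refilled, read 2676.5 in KO and 2431.8 in WT. Its ratio was 0.32, and its other 2 probes gave 0.12 and 0.06. Cav1, which encodes caveolin-1, had a ratio of 0.40. Homer1, a scaffold gene, had 0.39 at 1 probe and -0.15 at another of similar brightness. Cracr2b, an EF-hand gene of the family of ORAI regulators, read 148.1 in KO and 179.2 in WT, with a ratio of -0.54 that shrank to -0.25 without background correction.

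All 8 detected TRP and voltage-gated channel genes were above 0, beside 50.1% of all detected genes, with a median of 0.27. With median scaling 6 of the 8 were above 0, beside 30.6% of all detected genes. As a mean over probes 7 of the 8 were, beside 50.5%. Without background correction the 8 were still above 0 and the median was 0.13. Several of the 8, among them Cacnb1 and Trpv6, read near the background. Trpv4, a calcium-permeable channel opened by heat and osmotic stimuli, read 354.2 in KO and 284.2 in WT. Its ratio was 0.55, and its other 2 probes gave 0.34 and 0.54. Cacnb1, a channel subunit known from skeletal muscle, passed the detection limit in KO alone, with 139.7 in KO and 117.9 in WT. After background correction its KO value was 1.39-fold the lowest value detected in WT, but the size depended on that correction, and with an offset of 50 the ratio was 0.38. Trpv6, an epithelial calcium channel, read 134.6 in KO and 124.4 in WT, with a ratio of 0.28.

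The remaining pumps had a median of 0.16 over 2 genes and the exchangers -0.05 over 3. Atp2a1, the SERCA pump of fast skeletal muscle, had a ratio of 0.34, and Atp2c1, the Golgi calcium pump, -0.02. Slc24a3, a potassium-dependent sodium-calcium exchanger, read 1020.8 in KO and 932.7 in WT, a ratio of 0.33, whereas Slc24a4, the exchanger known from maturation stage ameloblasts, was not detected. None of the 6 genes listed as SERCA regulators or store proteins of muscle (Pln, Sln, Casq1, Casq2, Srl and Hrc) was detected.

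Mitochondrial, buffering and downstream genes had medians near 0. Mcu, the pore of the mitochondrial calcium uniporter, read 134.5 in KO and 158.7 in WT, a ratio of -0.59, but its other detected probe gave 0.00 and the mean over both was -0.29. The list of buffers and ER chaperones had a median of 0.02 over 9 genes. Within it Rcn3, an ER calcium-binding protein, was at 0.55 and Calr, the main calcium buffer of the ER lumen, at 0.35. Calm2, 1 of the calmodulin genes, read 453.8 in KO and 677.8 in WT, a ratio of -0.53, and Sdf4, which encodes a calcium-binding protein of the Golgi, was at -0.40. Calcineurin and NFAT genes, which read out store-operated entry in many cells, had a median of -0.02. Of these genes 5 of 10 were above 0, beside 50.1% of all detected genes, and Rcan3, a calcineurin inhibitor, was the highest at 0.34.

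**Figure D3:**
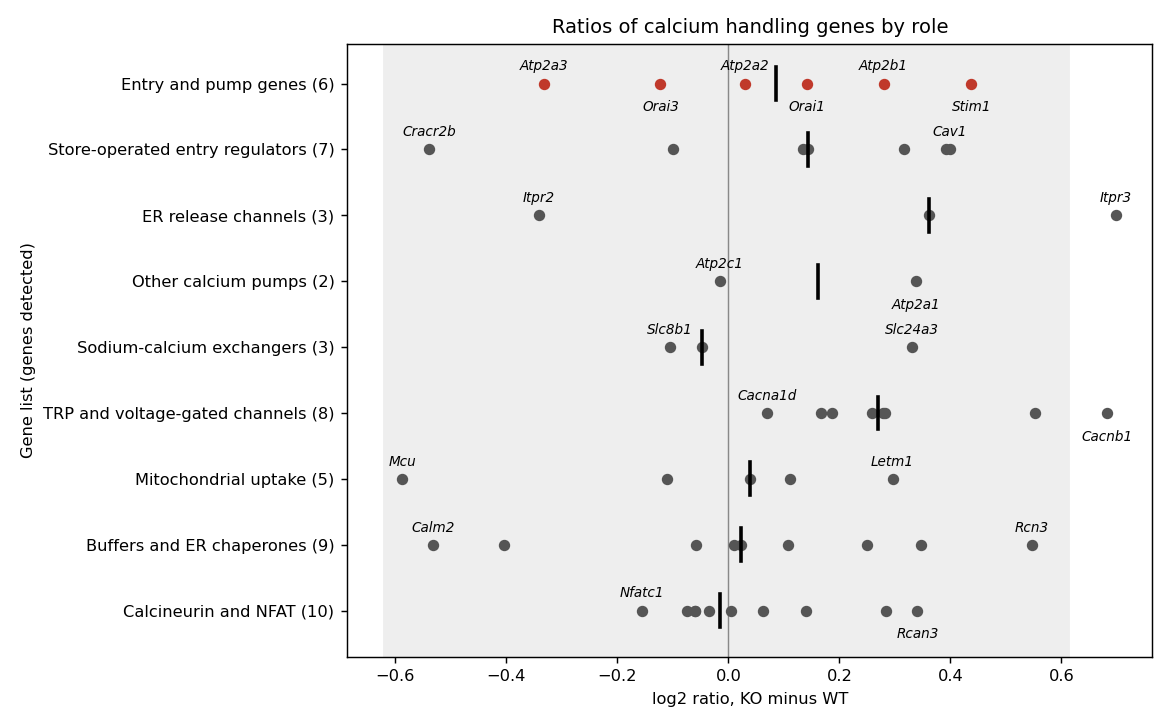
Log2 ratios (KO minus WT, 1 column of values each) of the detected calcium genes by role, each dot 1 gene and each black bar the list median, with the central 95% of all detected genes in grey (-0.62 to 0.61). The entry and pump genes lie within the grey band, and only Itpr3 and Cacnb1 of the other lists lie outside it.

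Markers of other cell types that use these genes also differed between the arrays, and in bulk tissue fewer cells of a type and less RNA per cell cannot be told apart. Skeletal muscle markers, relevant to Stim1 and Atp2a2 and including Atp2a1, were above 0 in 11 of the 13 detected, beside 50.1% of all detected genes. Their median ratio was 0.30, with a summed normalized intensity of 2674 in KO and 2087 in WT. In the authors' normalized values the median was 0.17. The 2 below 0 were Actn3 at -0.60 and Tnni2 at -0.10. Several of the 13 read near the background, among them Actn3, Ckm and Tnnt3. Of these markers Myh1, Myh4 and Casq1 were not detected. Neutrophil markers, relevant to Stim1, were above 0 in 9 of the 10 detected, beside the same 50.1%, and Mmp8 and Cxcr2 were not detected. The median ratio of the 10 was 1.0, or 0.71 in the authors' normalized values. Their summed intensity was 6184 in KO and 3125 in WT. S100a8, the brightest of them, read 3488.7 in KO and 2031.3 in WT. The authors also list S100a8 and S100a9 among genes of epidermal development higher in KO, in maturation stage tissue of younger mice. Endothelial and smooth muscle markers, given below, ran the other way. The part of any of these cells in the Stim1 ratio was not tested. Without Atp2a1, Ryr1, Pvalb and Casq1, which the muscle list also holds, the median of the wider calcium genes was 0.09.

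Endothelial markers, relevant to Atp2a3, were below 0 in 7 of the 9 detected, beside 4165 of all 8378 detected genes. Their median ratio was -0.26, or -0.18 in the authors' normalized values, with a summed intensity of 3043 in KO and 3917 in WT. Lymphocyte and platelet markers were near the background, with 3 of 7 detected, a summed intensity of 110 in KO and 130 in WT, and Cd3e, Cd3g, Cd79a and Gp9 not detected. Of other blood cells, neutrophil markers were above 0 in 9 of the 10 detected, at a median ratio of 1.0. Erythroid markers were below 0 in 2 of the 3 detected, at a median ratio of -0.37. The summed intensity of the erythroid markers was 14065 in KO and 18008 in WT, and Slc4a1 was above 0, at 0.42. The part of any of these cells in the Atp2a3 ratio was not tested. Smooth muscle and pericyte markers, whose cells use SERCA2, were below 0 in 6 of the 7 detected, beside the same 4165 of 8378, with Cnn1 not detected. The median ratio of these markers was -0.22, or -0.19 in the authors' normalized values. Their summed intensity was 11547 in KO and 15808 in WT, and their part in the Atp2a2 readings was not tested. Ameloblast markers varied in brightness. Amelx read 22412.7 in KO and 22621.8 in WT, and Ambn 11929.4 in KO and 13411.6 in WT. Mmp20 read 290.2 in KO and 251.3 in WT, Klk4 124.9 in KO and 132.6 in WT, and Slc24a4 was not detected. Markers of dental epithelium had a median of -0.07 over 5 genes, with Krt14 at 0.01 and the other 4 below 0, as low as -0.23 for Krt5. Those of ameloblasts had a median of 0.01 over 8 genes but spread widely. Fam20a was at 0.65, Sp6 at 0.60 and Mmp20 at 0.41, while Ambn was at -0.08, Enam at -0.10 and Klk4 at -0.32. The Klk4 reading was near the background, and its ratio was -0.11 in the authors' normalized values.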

How the data were processed

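The authors hybridized RNA of 1 KO and 1 WT sample, each from 3 mice, to an Illumina MouseRef-8 array and read it in GenomeStudio. They deposited an intensity and a detection p-value for each of 25697 probes, not normalized (median 115.7 in KO and 112.4 in WT), and a second set of intensity values normalized between arrays (medians 114.1 and 114). Headers name no sample for the detection p-values, so each was read with the intensity column on its left. Whether a column is 1 array or a mean of several is not given. Probe sequences were not used here.

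The non-normalized intensities were processed with neqc of limma 3.58.1 (R 4.3.3), which uses the detection p-values to correct the background, then applies an offset of 16, quantile normalization and log2. The offset and the correction act most on dim probes. Gene names came from the platform annotation (23978 probes with 1 symbol and 1719 with none), with list symbols also matched through RefSeq gene IDs, and 164 of 190 list entries were found. Each gene was read from its brightest probe detected at p under 0.01 on at least 1 array. A gene detected on 1 array was also set against the lowest detected value of the other array. Promoter windows are from RefSeq, GRCm38.p6.

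No test was possible with 1 sample per group, so genes were counted by fold. The text names all 10 entry and pump genes with every probe, Med1, up to 4 detected genes of the largest absolute ratio in each other calcium list, and defining markers of most cell types listed. Marker lists of macrophages, nerve and odontoblasts were also read, at medians of 0.05 over 4 genes, -0.52 over 2 and 0.19 over 4. Alternatives were no background correction, the authors' normalized values, an offset of 50, median scaling, a detection p under 0.05, detection on both arrays, a mean over probes, no filter and other fold limits. The genes and lists were chosen with earlier results of these data known. The normalization was checked on simulated data with known differences, all larger than those of the entry and pump genes. Only probes well above the background were changed, so the check does not cover dim probes or small ratios. The number of arrays limits the precision.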

Additional observations from a re-analysis of the deposited data

How the results depend on the processing

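Over 8 alternatives, the ratios of the 6 detected entry and pump genes moved by less than the SD of 0.25 between probes, and none passed 1.5-fold. The detection rules and the mean over probes could alter none of these ratios but that of Atp2a2. Each other gene was read from the same probe throughout. At the limit of 0.32 on the log2 scale the count was 2 in the values of the report and 1 in 4 of the 8 alternatives (no background correction, the authors' values, an offset of 50 and median scaling). Stim1, Orai1 and Atp2b1 were above 0 and Orai3 and Atp2a3 below 0 in every alternative run, and Atp2a2 was below 0 with median scaling (-0.16) and as a mean over probes (-0.08). In the authors' normalized values the ratios were 0.35 for Stim1, 0.21 for Atp2b1 and -0.23 for Atp2a3. At a detection p under 0.05 Atp2b4 also entered, at 0.28. The median of the detected entry and pump genes was between -0.07 (median scaling) and 0.14 (detection p under 0.05, with Atp2b4). The median of the wider calcium genes was between -0.02 and 0.14, and, without the 4 muscle genes (a choice made after seeing the data) 0.09. The number of genes past 1.5-fold over the whole array was 59 both without background correction and in the normalized values of the authors, 132 with an offset of 50, 296 when detection on both arrays was required, 472 as a mean over probes, 498 in the values of the report, 587 with no filter, 588 at a detection p under 0.05 and 589 with median scaling. A constant signal that is added or left in draws the ratios of dim probes towards 0. No replicate could be left out. No paired analysis was possible because each group has 1 sample and the result comes from no test. Signal over background limits what can be said of Orai2, Atp2b4, Calb1 and the dim probes of Atp2a3.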
